A study of Saccharomyces cerevisiae with 8 samples.

Results

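The comparison described here is the difference between 2 strains of Saccharomyces cerevisiae in their transcript response to acetic acid. For each gene, the change from 0% to 0.6% acetic acid (AcOH) on the log2 scale in strain NFRI 3145 was taken minus the same change in strain NBRC 0224. A negative value means that the ratio of the signal under acid to the signal without acid was lower in NFRI 3145, and −1 means that it was 2-fold lower. All 8 arrays entered it, and 3879 of the 5449 S. cerevisiae genes on the array were tested, those with a signal above background on at least 2 arrays. The background of an array was the 95th percentile of its 1746 probe sets for Schizosaccharomyces pombe, another yeast whose genes share the array. Of the 3879 genes, 33 (0.851%) had a called difference at an adjusted p under 0.05, 8 (0.206%) with a higher and 25 (0.644%) with a lower response in NFRI 3145.

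The labels call NBRC 0224 sensitive to acetic acid and NFRI 3145 tolerant, and the series set out to choose a gene related to tolerance. Each strain was sampled at 30 °C at 0% AcOH and after 30 min at 0.6% AcOH, with 2 Affymetrix Yeast Genome 2.0 arrays in each of the 4 groups and polyA RNA from a hot phenol extraction. The labels give no time for the 0% AcOH groups, so acid and time or handling cannot be told apart within a strain. They give no ploidy, mating type or medium, and they do not say whether replicates were separate cultures, so the p-values measure the spread between these arrays, which may be technical.

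Acetic acid crosses the plasma membrane in its uncharged form and releases protons and acetate in the neutral cytosol. Yeast meets such weak acids with the transcription factors Haa1 and War1, with the plasma membrane proton pump Pma1 and with the exporter Pdr12, while the general stress factors Msn2 and Msn4 drive a broad programme that includes trehalose and glycogen metabolism. Acetate is also a carbon source, but while glucose is present the genes for making glucose from it, such as FBP1 and PCK1, are kept off by glucose repression.

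The difference rests on 4 pairs of replicate arrays, and its precision was limited by their number: the median standard error (SE) over genes was 0.433 on the log2 scale, against 0.306 for the response of 1 strain. A signal ratio between strains that was the same at both acid levels cancels in it. Between the replicate arrays of a group r was 0.968 to 0.981 over the tested genes. More than a 2-fold gap separated the replicates in 5.47% and 8.48% of genes without acid (NBRC 0224 and NFRI 3145), and in 12.8% and 11.3% under acid. The share of tested genes above background was 70.4% and 75.6% on the arrays of NFRI 3145 at 0.6% AcOH and 78.7% to 91.3% on the other 6. The ratio of 3′ to 5′ probe sets, a sign of RNA integrity, was 0.926 to 1.02 for ACT1 (actin) on all arrays. It differed by strain for WBP1, an ER membrane protein, at 3.36 to 4.39 in NBRC 0224 and 8.86 to 9.92 in NFRI 3145, and for RIP1, the Rieske subunit of the respiratory chain, at 1.71 to 2.01 and 3.58 to 4.81. For SPT15, the TATA-binding protein, it ran the other way, at 3.87 to 7.32 and 1.90 to 3.55. The part of these values in the differences below was not tested.

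The number of calls changed with the array left out. Each such fit left 1 array in a group, and that group then added nothing to the estimate of the spread. A change in the number of calls thus mixes the spread within that group with the influence of the array, and these fits cannot separate them. Without NBRC 0224 0.6% AcOH replicate 1, 168 genes were higher and 168 lower in NFRI 3145, the 33 called genes among them, and without replicate 2 of that group 10 were higher and 43 lower, with 23 of the 33. Without NBRC 0224 0% AcOH replicate 1 none was called higher by limma and 4 lower (164 and 260 at an unadjusted p under 0.05), and of the 33 only YET1, PCK1 and FRE7 remained called. Without replicate 2 of that group, 2 were higher and 8 lower, with 10 of the 33. Without NFRI 3145 0% AcOH replicate 1 and replicate 2 the counts were 17 higher and 25 lower, and 5 higher and 6 lower, with 26 and 10 of the 33. Without NFRI 3145 0.6% AcOH replicate 1 and replicate 2 they were 2 higher and 12 lower, and 4 higher and 28 lower, with 12 and 17 of the 33. YET1, PCK1 and FRE7 were the genes that stayed called in all 8 fits with 1 array left out. FBP1, RSB1, TIR1 and ARG1 stayed called in 7 of the 8 and missed the threshold without NBRC 0224 0% AcOH replicate 1, with adjusted p between 0.054 and 0.078. For the other genes below, the number of these 8 fits that kept the call is given.

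The strains shared part of their response. Across the 3879 genes, which are not independent replicates, the response of NFRI 3145 correlated with that of NBRC 0224 at r = 0.418, and the 2 responses share no array. The response of NBRC 0224 alone was called in 326 genes (8.4%) and that of NFRI 3145 in 523 (13.5%). Of the 698 genes called in at least 1 strain, 33 (4.73%) had a called difference between the strains, so few of the genes called in 1 strain alone were shown to differ between strains. The middle of all differences was −0.03, and they ran from −1.83 at the 5th to 1.26 at the 95th percentile. At an unadjusted p under 0.05, 671 genes (17.3%) differed, 295 of them higher and 376 lower in NFRI 3145. The balance of directions depended on the scaling: with each array centred on its median in place of the deposited scale, 19 genes were called higher and 21 lower, and 380 were higher and 306 lower at an unadjusted p under 0.05. Of 212 differences over 4-fold, 19 were called, and only 15 of the 212 came from genes above background on all arrays.

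**Figure D1:**
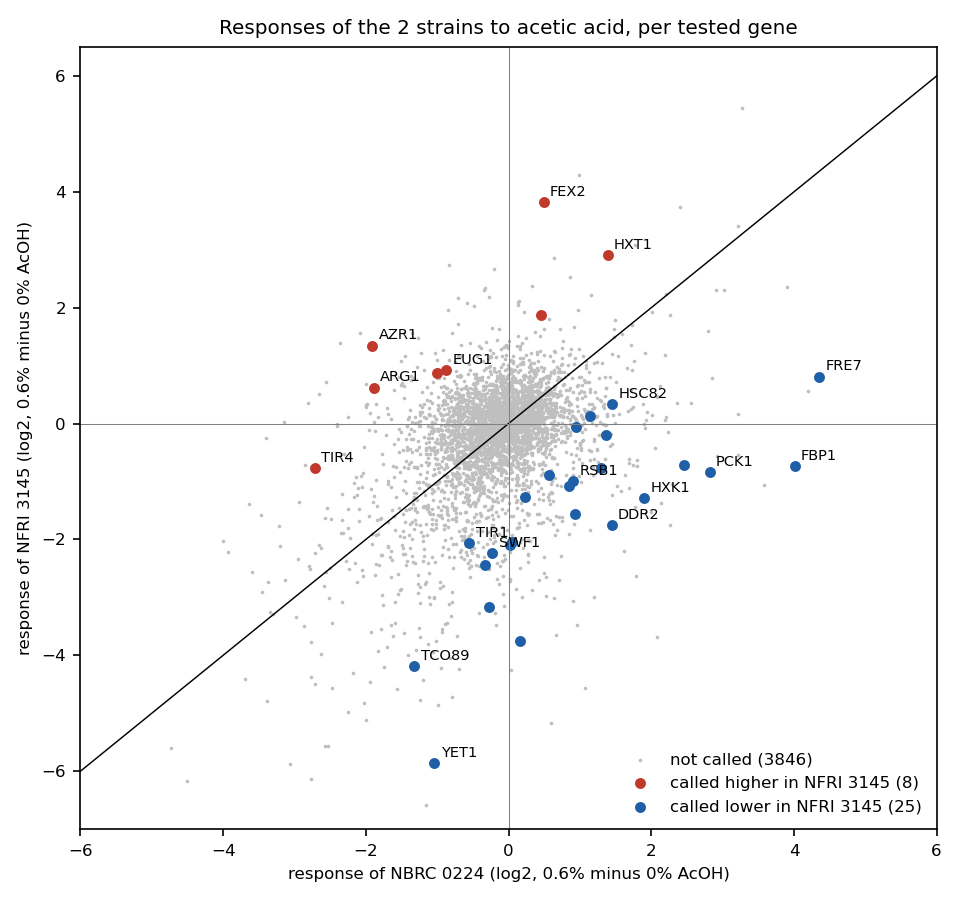
Response to acetic acid of each of the 3879 tested genes in NBRC 0224 (x axis) and NFRI 3145 (y axis), both as log2 of 0.6% over 0% AcOH, with the line of equal responses. The 25 genes called lower in NFRI 3145 lie under the line, with FRE7, FBP1 and PCK1 far to the right and YET1 far down, and the 8 called higher lie above it.

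The 33 genes fell into 4 kinds by which strain's own response was called. In 11 genes only the response of NBRC 0224 was called: FBP1, PCK1, FRE7, PRM3, MPC3, AQY2, HSC82, RPS28A and YAR068W rose, and ARG1 and AZR1 fell. In 11 others only that of NFRI 3145 was called: RCN2, TCO89, BDH2, YGL041C-B, YEL076C-A, YGR121W-A, SWF1 and PRY1 fell, ENB1 rose, YFL064C had a negative response and FEX2 a positive one. All 4 NFRI 3145 signals of YFL064C and of FEX2 were below background, so no change of these 2 genes was measured in NFRI 3145; with signals below background set to background their responses there were both 0.04. In 7 genes both responses were called in opposite directions: DDR2, HXK1, MET13, RSB1 and GLK1 rose in NBRC 0224 and fell in NFRI 3145, and EUG1 and SCP160 did the reverse. In the remaining 4 both responses were called in the same direction: YET1, TIR1 and TIR4 fell in both and HXT1 rose in both. All 4 NFRI 3145 signals of HSC82, RPS28A and YAR068W were above 10000, where the scale may compress a change. The part of this in the kind given to these genes was not tested.

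**Figure D2:**
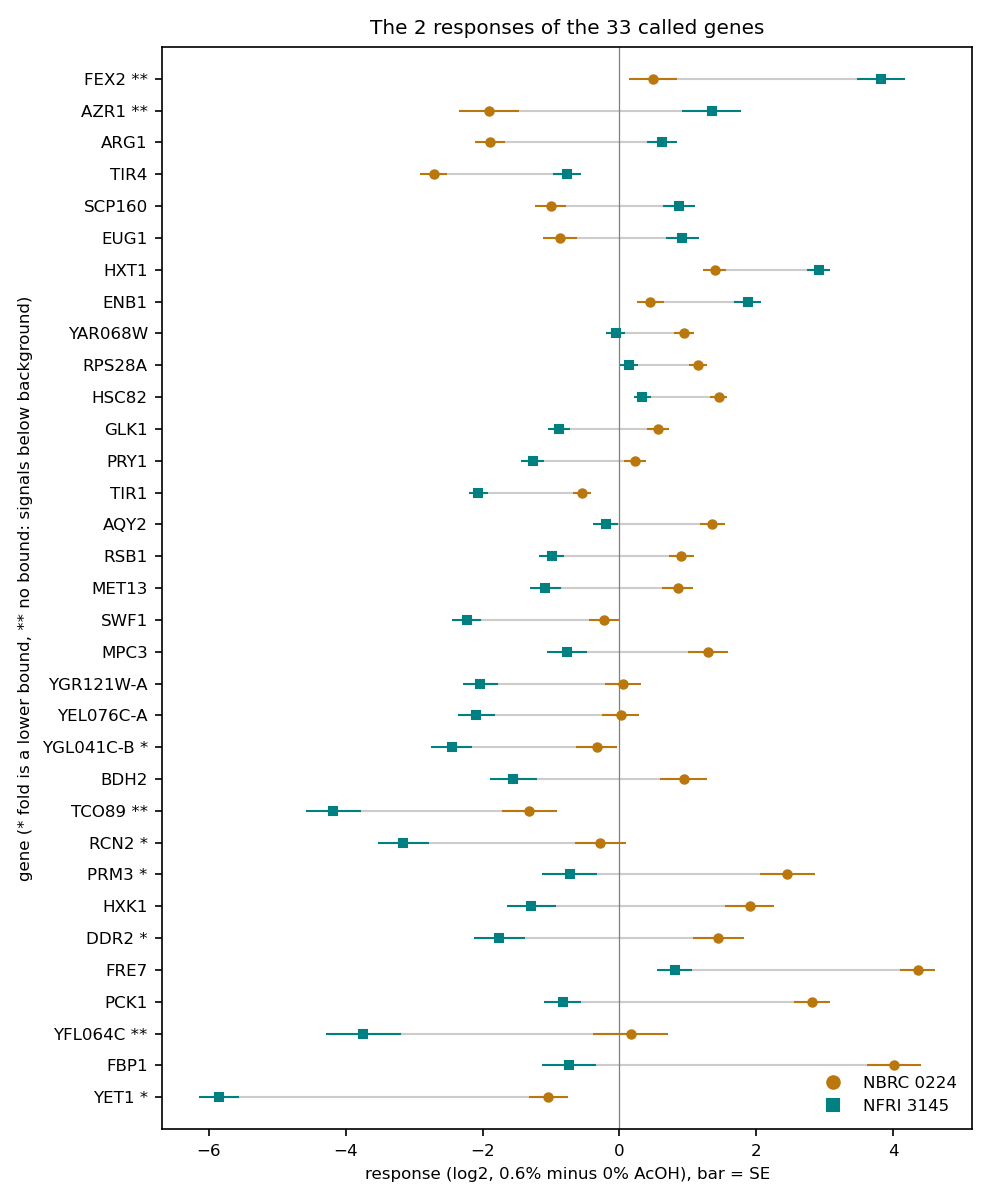
Responses of the 33 called genes, each a log2 change from 0% to 0.6% AcOH in NBRC 0224 (circles) and NFRI 3145 (squares) with its SE, ordered by their difference. Of the genes above background on all arrays, FBP1 has the widest gap, a difference of −4.74, and an asterisk marks genes with signals below background, for which the fold is a lower bound (1) or has no bound (2).

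Genes for making glucose carried some of the largest differences. FBP1 (YLR377C) encodes fructose-1,6-bisphosphatase, an enzyme of gluconeogenesis. Its signal in NBRC 0224 was 56.6 and 60.9 intensity units at 0% AcOH and 633 and 1412 at 0.6% AcOH, and in NFRI 3145 it was 131 and 207 at 0% AcOH and 77.2 and 127 at 0.6% AcOH. The arrays of NBRC 0224 under acid were thus above all others, and the 2 groups of NFRI 3145 lay close together without overlapping. FBP1 rose by 4.01 ± 0.39 (log2, SE) in NBRC 0224, its change of −0.74 ± 0.39 in NFRI 3145 did not pass the test, and the difference of −4.74 ± 0.55 (adjusted p = 0.0028) is a 26.8-fold difference between the acid ratios. PCK1 (YKR097W) encodes phosphoenolpyruvate carboxykinase, the entry enzyme of the same pathway. It read 181 and 206 at 0% and 1071 and 1733 at 0.6% AcOH in NBRC 0224, and 200 and 190 at 0% and 113 and 106 at 0.6% AcOH in NFRI 3145. Without acid the strains read alike for PCK1, with a strain difference of 0.01 ± 0.26. Under acid every NBRC 0224 array was above every NFRI 3145 array. The difference of the responses was −3.65 ± 0.37 (adjusted p = 0.0011), 12.6-fold, from 2.82 ± 0.26 in NBRC 0224 and −0.83 ± 0.26, which did not pass, in NFRI 3145.

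FBP1 and PCK1 were the called genes among 25 tested members of the list for acetate activation, the glyoxylate cycle and gluconeogenesis. The median difference of that list was −0.53, with 16 members below 0, 10 more than 2-fold lower and 3 more than 2-fold higher, where all tested genes had a median of −0.03, 51.5% below 0, 13.0% more than 2-fold lower and 8.46% more than 2-fold higher. These shares, with 0.851% of all tested genes called and 17.3% at an unadjusted p under 0.05, are the comparison for each list below. The median of the acetate and gluconeogenesis list rested on the NBRC 0224 0.6% AcOH arrays: it was −0.24 without replicate 1 and −0.99 without replicate 2. Members that did not pass include YAT1, a carnitine acetyltransferase, at −1.63 ± 0.42 (adjusted p = 0.094), ACH1, a CoA transferase of acetate, at −1.63 ± 0.40 (adjusted p = 0.087) and PYC1, pyruvate carboxylase, at 1.25 ± 0.32 (adjusted p = 0.096). JEN1, the lactate and pyruvate permease, showed how far the replicates could part. It read 2996 and 674 in NBRC 0224 at 0.6% AcOH and between 247 and 357 on the other 6 arrays, and its difference of −1.87 ± 0.71 did not pass (adjusted p = 0.22). These members and the other genes of lists named below with no called difference were chosen after their values were seen.

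**Figure D3:**
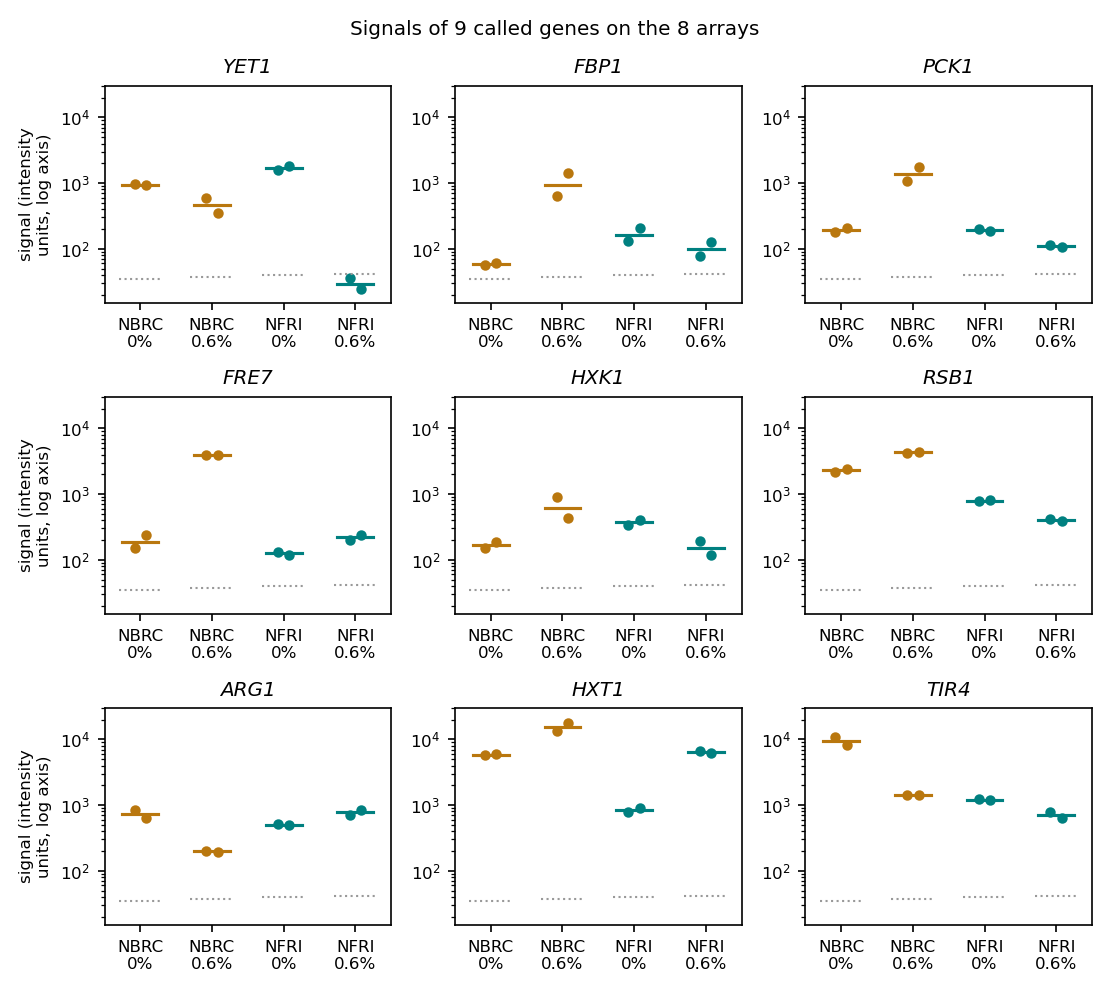
Signals of 9 called genes on the 8 arrays, in intensity units on a log axis, with points for arrays, lines for the means of the log2 signals of a group and dotted lines for the mean background of the group's arrays. In FBP1, PCK1 and FRE7 the NBRC 0224 arrays at 0.6% AcOH stand above the other 3 groups, and in YET1 the NFRI 3145 arrays at 0.6% AcOH are at or below background.

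Of the 3 glucose-phosphorylating enzymes, HXK1 and GLK1 had a called difference and HXK2 did not. HXK1 (YFR053C), hexokinase 1, read 150 and 187 at 0% and 905 and 432 at 0.6% AcOH in NBRC 0224, and 341 and 406 at 0% and 194 and 120 at 0.6% AcOH in NFRI 3145. It was lower in NBRC 0224 than in NFRI 3145 without acid and higher under acid, on every array. HXK1 rose by 1.90 ± 0.35 in NBRC 0224 and fell by 1.29 ± 0.35 in NFRI 3145, with a difference of −3.19 ± 0.50 (adjusted p = 0.013; 9.11-fold; called in 5 of 8 fits). GLK1 (YCL040W), glucokinase, read 9144 and 8261 at 0% and 11330 and 14606 at 0.6% AcOH in NBRC 0224, and 8782 and 10047 at 0% and 5418 and 4763 at 0.6% AcOH in NFRI 3145. Its groups overlapped between the strains at 0% AcOH and were apart under acid. The difference was −1.45 ± 0.22 (adjusted p = 0.013; called in 4 of 8 fits), and 3 of its arrays were above 10000 (here called near the top of the scale), where the scale may compress a change. HXK2, the main hexokinase of cells growing on glucose, lay between 10746 and 14214 on all arrays, with a difference of 0.14 ± 0.17 that did not pass (adjusted p = 0.72).

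The 1 called difference among the hexose transporter genes went the other way. HXT1 (YHR094C), a low-affinity hexose transporter induced by high glucose, read 5714 and 5916 at 0% and 13232 and 17529 at 0.6% AcOH in NBRC 0224. In NFRI 3145 it read 789 and 906 at 0% and 6581 and 6125 at 0.6% AcOH, so each NFRI 3145 array was below each NBRC 0224 array at the same acid level. HXT1 rose by 1.39 ± 0.17 in NBRC 0224 and by 2.91 ± 0.17 in NFRI 3145, a difference of 1.52 ± 0.24 (adjusted p = 0.013; called in 5 of 8 fits), and the 2 arrays of NBRC 0224 under acid were near the top of the scale. HXT4, a transporter of higher affinity, fell in both strains, by −1.56 in NBRC 0224 and −2.94 in NFRI 3145, with a difference of −1.38 ± 0.34 that did not pass (adjusted p = 0.087). HXT2 and HXT3 were near the top of the scale on all arrays, with differences of −0.14 and −0.10. Over the 10 hexose transporters tested the median difference was −0.78, with 8 below 0, and it was −0.17 without NBRC 0224 0.6% AcOH replicate 1, −0.93 without replicate 2 and −0.14 without the members whose probe sets can hybridise with related transcripts. MPC3, a subunit of the mitochondrial pyruvate carrier, read 117 and 102 at 0% and 274 and 262 at 0.6% AcOH in NBRC 0224, and 246 and 400 at 0% and 225 and 151 at 0.6% AcOH in NFRI 3145. It rose by 1.30 ± 0.30 in NBRC 0224 while −0.77 ± 0.30 in NFRI 3145 did not pass, with a difference of −2.07 ± 0.42 (adjusted p = 0.049; called in 2 of 8 fits). MPC2, another subunit, had a difference of 0.18 ± 0.23 (adjusted p = 0.72). BDH2, a putative alcohol dehydrogenase similar to the butanediol dehydrogenase BDH1, fell by 1.56 ± 0.34 in NFRI 3145, where it read 197 and 282 at 0% and 59.8 and 108 at 0.6% AcOH. In NBRC 0224 it read 93.7 and 112 at 0% and 160 and 240 at 0.6% AcOH, and the difference was −2.49 ± 0.49 (adjusted p = 0.042; called in 3 of 8 fits).

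Among the lists of copper and iron uptake genes, called differences were single. FRE7 (YOL152W), of the metalloreductase family and known to be induced when copper is low, had the largest rise of NBRC 0224 among the called genes. It read 152 and 238 at 0% and 3881 and 3905 at 0.6% AcOH in NBRC 0224, and 134 and 117 at 0% and 199 and 242 at 0.6% AcOH in NFRI 3145. The 2 NBRC 0224 arrays under acid were more than 10-fold above every other array. FRE7 rose by 4.36 ± 0.26 in NBRC 0224, its change of 0.81 ± 0.26 in NFRI 3145 did not pass, and the difference was −3.55 ± 0.37 (adjusted p = 0.0011; 11.7-fold). The other copper genes did not share this in a called difference. CTR1, the high-affinity copper transporter, was at −2.46 ± 0.65 (adjusted p = 0.10) with 3 arrays below background. CTR3, another copper transporter, was at 2.17 ± 0.98 (adjusted p = 0.29) and rose in both strains. Of the 12 copper genes tested, FRE7 was the called one (8.33%, against 0.851% of all tested genes). At an unadjusted p under 0.05, 1 was higher and 4 were lower. Their median was −0.28 with 9 below 0 (75%, against 51.5% of all tested genes).

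Of the 29 iron uptake genes tested under the activator Aft1, 1 was called (3.45%, against 0.851% of all tested genes). At an unadjusted p under 0.05, 3 were higher and 6 were lower. The median difference was −0.01, with 15 below 0 (51.7%, against 51.5% of all tested genes). The called gene was ENB1 (YOL158C), the transporter of the siderophore enterobactin, which read 1762 and 2106 at 0% and 2896 and 2390 at 0.6% AcOH in NBRC 0224 and 962 and 1188 at 0% and 3675 and 4174 at 0.6% AcOH in NFRI 3145. The NFRI 3145 arrays were the lowest without acid and the highest with it. ENB1 rose by 1.87 ± 0.19 in NFRI 3145 while 0.45 ± 0.19 in NBRC 0224 did not pass, and the difference was 1.42 ± 0.28 (adjusted p = 0.041; called in 2 of 8 fits). FET3, the multicopper oxidase of iron uptake, rose by 3.21 in NBRC 0224 and by 3.40 in NFRI 3145, with a difference of 0.19 ± 0.35 (adjusted p = 0.81). SIT1 and ARN1, both siderophore transporters, rose in both strains and had differences of 1.30 ± 0.34 (adjusted p = 0.097) and −0.72 ± 0.28 (adjusted p = 0.23).

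YET1 (YKL065C) encodes an endoplasmic reticulum membrane protein related to mammalian BAP31. It read 969 and 920 at 0% and 591 and 356 at 0.6% AcOH in NBRC 0224, and 1578 and 1839 at 0% and 35.7 and 24.3 at 0.6% AcOH in NFRI 3145. The NFRI 3145 arrays were thus the highest of the 8 without acid and the only ones below background with it. YET1 fell by 1.04 ± 0.29 in NBRC 0224 and fell by 5.86 ± 0.29 in NFRI 3145, and the difference was −4.81 ± 0.41 (adjusted p = 0.00041). With the 2 signals below background raised to it, the difference was −4.31, smaller in size than that of FBP1 (−4.74), and the acid ratio was at least 19.9-fold lower in NFRI 3145. The related YET3 lay between 5805 and 8875 on all arrays with a difference of 0.25 ± 0.20 (adjusted p = 0.54), and YET2 had −3.51 ± 1.37 (adjusted p = 0.23). EUG1, a protein disulfide isomerase of the endoplasmic reticulum, read 1013 and 1016 at 0% and 630 and 488 at 0.6% AcOH in NBRC 0224, and 81.9 and 62.6 at 0% and 138 and 133 at 0.6% AcOH in NFRI 3145. EUG1 was lower in NFRI 3145 at either level, with strain differences of −3.83 at 0% and −2.04 at 0.6% AcOH, and the difference of the responses was 1.79 ± 0.34 (adjusted p = 0.040; called in 2 of 8 fits). PDI1, the essential isomerase, had −0.13 ± 0.16 (adjusted p = 0.70). The 32 tested genes of endoplasmic reticulum folding and the unfolded protein response had a median of −0.08 with 17 below 0.

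RSB1 encodes a plasma membrane protein that moves sphingoid long-chain bases out of the cell. It read 2177 and 2417 at 0% and 4238 and 4357 at 0.6% AcOH in NBRC 0224, and 785 and 814 at 0% and 417 and 387 at 0.6% AcOH in NFRI 3145. All 4 groups were apart, with replicates close together, and the order of the acid levels was reversed between the strains. The difference was −1.90 ± 0.26 (adjusted p = 0.0062; 3.73-fold), from 0.91 ± 0.18 in NBRC 0224 and −0.99 ± 0.18 in NFRI 3145. SWF1, a palmitoyltransferase that modifies membrane proteins, read 1045 and 1459 at 0% and 1090 and 1022 at 0.6% AcOH in NBRC 0224, and 1601 and 1677 at 0% and 370 and 327 at 0.6% AcOH in NFRI 3145. It fell by 2.24 ± 0.22 in NFRI 3145, −0.23 ± 0.22 in NBRC 0224 did not pass, and the difference was −2.01 ± 0.31 (adjusted p = 0.013; called in 4 of 8 fits). RSB1 was the called gene of 36 tested of fatty acids and sphingolipids, whose median was −0.01 with 18 below 0. Of 40 tested cell wall genes none was called by limma, with 3 higher and 3 lower at an unadjusted p under 0.05, and their median was −0.16.

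TIR1 and TIR4 encode related cell wall mannoproteins that are known to be made in the cold and without oxygen, and they differed in opposite directions. TIR1 read 16732 and 16626 at 0% and 12198 and 10630 at 0.6% AcOH in NBRC 0224, and 8526 and 7839 at 0% and 1970 and 1946 at 0.6% AcOH in NFRI 3145. It fell in both strains, by −0.55 ± 0.13 in NBRC 0224 and −2.06 ± 0.13 in NFRI 3145, with a difference of −1.51 ± 0.19 (adjusted p = 0.0041). All 4 NBRC 0224 arrays were near the top of the scale for TIR1, where its fall can be compressed, and the part of this in the difference was not tested. TIR4 read 11046 and 8096 at 0% and 1441 and 1437 at 0.6% AcOH in NBRC 0224, and 1233 and 1181 at 0% and 788 and 641 at 0.6% AcOH in NFRI 3145. It fell by 2.72 ± 0.20 in NBRC 0224 and fell by 0.76 ± 0.20 in NFRI 3145, with a difference of 1.95 ± 0.28 (adjusted p = 0.012; called in 5 of 8 fits). TIR2 and TIR3 of the same family had 0.11 ± 0.28 and 0.03 ± 0.22 (adjusted p = 0.87 and 0.96). The 32 hypoxic and heme-regulated genes tested, which hold the TIR genes, had a median of −0.10 with 19 below 0.

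AQY2, a water channel, read 1969 and 2749 at 0% and 6348 and 5613 at 0.6% AcOH in NBRC 0224, and 8812 and 10015 at 0% and 8927 and 7504 at 0.6% AcOH in NFRI 3145. It rose by 1.36 ± 0.18 in NBRC 0224 while −0.20 ± 0.18 in NFRI 3145 did not pass, with a difference of −1.56 ± 0.26 (adjusted p = 0.016; called in 4 of 8 fits). AQY1, the other aquaporin, had −1.03 ± 0.36 (adjusted p = 0.19). PRY1, a secreted sterol-binding protein, read 2957 and 2692 at 0% and 3317 and 3274 at 0.6% AcOH in NBRC 0224, and 4735 and 5706 at 0% and 2256 and 2060 at 0.6% AcOH in NFRI 3145. The signals of NFRI 3145 were highest without acid and lowest with it, with no overlap between the 4 groups. The difference was −1.49 ± 0.23 (adjusted p = 0.013; called in 3 of 8 fits), and PRY2 and PRY3 had 0.00 and −0.02.

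DDR2, a small stress protein under Msn2 and Msn4, read 24.5 and 36.8 at 0% and 87.3 and 76.4 at 0.6% AcOH in NBRC 0224, and 131 and 135 at 0% and 50.4 and 30.6 at 0.6% AcOH in NFRI 3145. It was higher in NFRI 3145 without acid and higher in NBRC 0224 with it, on every array. DDR2 rose by 1.44 ± 0.37 in NBRC 0224 and fell by 1.76 ± 0.37 in NFRI 3145, with a difference of −3.20 ± 0.53 (adjusted p = 0.016; called in 5 of 8 fits), and the acid ratio was at least 6.48-fold lower in NFRI 3145. DDR2 and HXK1 were the called genes of 43 tested under Msn2 and Msn4 (4.65%, against 0.851% of all tested genes), and the median of the list was −0.79, with 34 of 43 below 0 (79.1%), 18 more than 2-fold lower and 1 more than 2-fold higher. Of the 43, 22 were above background on all arrays, and their median was −0.45. The median response of the list itself was −0.02 in NBRC 0224 and −0.57 in NFRI 3145.

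Of 17 trehalose and glycogen genes tested none was called by limma, with 1 higher and 6 lower at an unadjusted p under 0.05. Of the 17, 12 were below 0, 7 were more than 2-fold lower and none more than 2-fold higher, with a median of −0.59, or −0.34 over the 10 above background on all arrays. GPH1, glycogen phosphorylase, read 259 and 432 at 0% and 866 and 2205 at 0.6% AcOH in NBRC 0224, and 157 and 174 at 0% and 115 and 133 at 0.6% AcOH in NFRI 3145. Its difference of −2.47 ± 0.55 had the adjusted p = 0.065. GSY2, glycogen synthase, was at −1.81 ± 0.51 (adjusted p = 0.11), and TPS1, of trehalose synthesis, at 0.32 ± 0.29 (adjusted p = 0.58).

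HSC82, the constitutive Hsp90 chaperone, was the called gene among 20 tested chaperones under the heat shock factor Hsf1, whose median difference was 0.02. It read 3330 and 3456 at 0% and 8638 and 9983 at 0.6% AcOH in NBRC 0224, and 17809 and 18491 at 0% and 23891 and 21937 at 0.6% AcOH in NFRI 3145. HSC82 rose by 1.45 ± 0.13 in NBRC 0224, 0.34 ± 0.13 in NFRI 3145 did not pass, and the difference was −1.12 ± 0.18 (adjusted p = 0.014; called in 3 of 8 fits). All 4 NFRI 3145 arrays were near the top of the scale for HSC82. HSP82, the inducible Hsp90, had 1.12 ± 0.56 (adjusted p = 0.32), and the small heat shock protein HSP26 rose by 2.21 and 2.23, with a difference of 0.03 ± 0.31 (adjusted p = 0.98).

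Of the called genes of amino acid and protein synthesis, ARG1 and SCP160 had the higher response in NFRI 3145, and MET13 and RPS28A the lower. ARG1 (YOL058W), argininosuccinate synthetase of arginine synthesis, read 836 and 644 at 0% and 200 and 196 at 0.6% AcOH in NBRC 0224, and 513 and 492 at 0% and 702 and 849 at 0.6% AcOH in NFRI 3145. The NBRC 0224 arrays were above those of NFRI 3145 without acid and below them with it. ARG1 fell by 1.89 ± 0.23 in NBRC 0224 while 0.62 ± 0.23 in NFRI 3145 did not pass, and the difference was 2.51 ± 0.32 (adjusted p = 0.0041; 5.71-fold). The 13 arginine synthesis genes tested had a median of −0.03 with 7 below 0, and ARG4, the next enzyme after ARG1, had 0.79 ± 0.24 (adjusted p = 0.15).

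Of 59 tested genes of amino acid synthesis under the activator Gcn4, none was called by limma, with 19 higher and 1 lower at an unadjusted p under 0.05. Of the 59, 16 were below 0, 14 were more than 2-fold higher and none more than 2-fold lower. Their median was 0.45, from a median response of −0.34 in NBRC 0224 and 0.14 in NFRI 3145. It stayed between 0.32 and 0.65 whichever array was left out. HIS4, an enzyme of histidine synthesis, was at 2.10 ± 0.46 (adjusted p = 0.065), TYR1 at 1.28 ± 0.36 and LEU1 at 1.17 ± 0.32 (adjusted p = 0.11 for both). MET13, methylenetetrahydrofolate reductase, which feeds methionine synthesis, went the other way. It read 658 and 790 at 0% and 1149 and 1474 at 0.6% AcOH in NBRC 0224, and 342 and 379 at 0% and 169 and 171 at 0.6% AcOH in NFRI 3145. MET13 rose by 0.85 ± 0.23 in NBRC 0224 and fell by 1.08 ± 0.23 in NFRI 3145, with a difference of −1.94 ± 0.32 (adjusted p = 0.016; called in 3 of 8 fits), and MET12, its relative, had 0.04 (adjusted p = 0.97).

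SCP160, an RNA-binding protein found on polysomes, read 6139 and 7737 at 0% and 3929 and 2995 at 0.6% AcOH in NBRC 0224, and 651 and 441 at 0% and 946 and 1009 at 0.6% AcOH in NFRI 3145. It fell by 1.01 ± 0.23 in NBRC 0224 and rose by 0.87 ± 0.23 in NFRI 3145, with a difference of 1.87 ± 0.33 (adjusted p = 0.023; called in 3 of 8 fits). Of 129 cytosolic ribosomal protein genes tested 1 was called, RPS28A (0.775%, against 0.851% of all tested genes), and the median of the list was −0.13. RPS28A read 1144 and 1154 at 0% and 2600 and 2482 at 0.6% AcOH in NBRC 0224, and 15168 to 17392 on the 4 NFRI 3145 arrays, all near the top of the scale. Its difference was −1.01 ± 0.19 (adjusted p = 0.039; called in 2 of 8 fits), and RPS28B, which encodes nearly the same protein, had −0.04 ± 0.23 (adjusted p = 0.95).

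Some called differences rested on signals below background. TCO89, a subunit of the TORC1 kinase complex, read 324 and 342 in NFRI 3145 at 0% AcOH and 15.6 and 21.6 at 0.6% AcOH, against 34.8 and 51.2 and then 15.6 and 18.3 in NBRC 0224. It fell by 4.18 ± 0.40 in NFRI 3145, but both strains ended below background, so the difference of −2.86 ± 0.57 (adjusted p = 0.045; called in 2 of 8 fits) has no bound. AZR1, a plasma membrane transporter linked to resistance to azoles and acetic acid, fell in NBRC 0224 from 2258 and 2442 to 633 and 618, by 1.91 ± 0.44. Its NFRI 3145 signals of 2.67 to 12.3 were all below background, so the difference of 3.25 ± 0.62 (adjusted p = 0.039; called in 3 of 8 fits) has no bound either. FEX2, a fluoride exporter, read 4583 and 4425 at 0% and 6549 and 6121 at 0.6% AcOH in NBRC 0224 and 0.586 to 12.7 in NFRI 3145. Its difference of 3.33 ± 0.50 (adjusted p = 0.013; called in 6 of 8 fits) came from NFRI 3145 signals below background, and with these set to background it was −0.46 (adjusted p = 0.45). FEX1, its near copy, read 1781 to 1864 in NFRI 3145, with a difference of −0.30 ± 0.24 (adjusted p = 0.53). The reading frame YFL064C, measured by a probe set that can hybridise with related transcripts, was also below background on all NFRI 3145 arrays. Its −3.91 ± 0.78 (adjusted p = 0.047; called in 3 of 8 fits) became −0.13 with those signals set to background.

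RCN2, named as a regulator of calcineurin, read 70.7 and 70.6 at 0% and 51.0 and 66.6 at 0.6% AcOH in NBRC 0224, and 179 and 263 at 0% and 18.2 and 32.4 at 0.6% AcOH in NFRI 3145. Its acid ratio was at least 4.29-fold lower in NFRI 3145, with a fitted difference of −2.88 ± 0.53 (adjusted p = 0.030; called in 3 of 8 fits). PRM3, a nuclear envelope protein of nuclear fusion after mating, rose by 2.45 ± 0.40 in NBRC 0224, from 10.9 and 8.27 to 39.9 and 67.8, and read 145 and 123 at 0% and 82.3 and 79.6 at 0.6% AcOH in NFRI 3145. Its ratio was at least 2.48-fold lower in NFRI 3145 (−3.18 ± 0.57, adjusted p = 0.027), and it kept its call in 1 of 8 fits. Both NBRC 0224 signals of PRM3 at 0% AcOH were below background. With signals below background set to background, its response in NBRC 0224 was 0.59. The difference was then −1.31 and did not pass (adjusted p = 0.075). The list of mating and haploid-specific genes does not hold PRM3. None of its 13 tested genes was called by limma (0 higher and 1 lower at an unadjusted p under 0.05), and their median was −0.02.

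Of the called reading frames without a known role, YGR121W-A read 85.6 to 98.1 in NBRC 0224, and 642 and 791 at 0% and 149 and 203 at 0.6% AcOH in NFRI 3145. Its difference was −2.09 ± 0.36 (adjusted p = 0.023; called in 4 of 8 fits). YEL076C-A, whose probe set can hybridise with related transcripts, read 656 to 869 in NBRC 0224, and 279 and 338 at 0% and 87.0 and 59.5 at 0.6% AcOH in NFRI 3145, with a difference of −2.11 ± 0.38 (adjusted p = 0.029; called in 2 of 8 fits). Both fell in NFRI 3145 and stayed within a narrow range in NBRC 0224. YGL041C-B had an acid ratio at least 3.13-fold lower in NFRI 3145 (−2.12 ± 0.42, adjusted p = 0.047; called in 1 of 8 fits). YAR068W rose in NBRC 0224, from 1045 and 1213 to 2056 and 2285, while its NFRI 3145 arrays stayed at 22325 to 24324, near the top of the scale. Its difference was −1.0 ± 0.20 (adjusted p = 0.048; called in 2 of 8 fits).

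Of the 2 lists of weak-acid genes, AZR1 was the called member. HAA1, the main activator of the acetic acid response, fell in both strains. It read 80.8 and 66.0 at 0% and 33.2 and 31.0 at 0.6% AcOH in NBRC 0224, and 189 and 188 at 0% and 38.6 and 45.3 at 0.6% AcOH in NFRI 3145. Under acid its signals of 31.0 in NBRC 0224 and 38.6 in NFRI 3145 were below the backgrounds of their arrays (43.9 and 43.6). The falls thus ended near background, and their sizes are uncertain. The difference of −0.99 ± 0.44 did not pass (adjusted p = 0.28). With signals below background set to background it was −1.15 and did not pass either (adjusted p = 0.084). WAR1, the activator of PDR12, had 0.52 ± 0.50 (adjusted p = 0.61), with some signals below background, and 0.47 with these set to background. PDR12, the weak-acid exporter, read 5042 and 4448 at 0% and 3065 and 2082 at 0.6% AcOH in NBRC 0224, and 1433 and 1281 at 0% and 724 and 846 at 0.6% AcOH in NFRI 3145. It fell in both strains, by −0.91 in NBRC 0224 and −0.79 in NFRI 3145, and the difference was 0.11 ± 0.30 (adjusted p = 0.88). FPS1, the glycerol channel through which acetic acid can enter, had 0.86 ± 0.49 (adjusted p = 0.38), with all NFRI 3145 arrays below background. PMA1, the proton pump, lay between 14249 and 18856, near the top of the scale on all arrays, with −0.25 ± 0.16 (adjusted p = 0.42). HSP30, a membrane stress protein that restrains the pump, read 1063 and 117 on the NBRC 0224 arrays at 0.6% AcOH, and its difference of −2.31 ± 1.03 did not pass (adjusted p = 0.28). Without the first of these arrays (replicate 1) it was −0.71, and without the second (replicate 2) it was −3.90 and passed (adjusted p = 0.0031).

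Among 20 tested genes of the Haa1 regulon none was called by limma, with 0 higher and 6 lower at an unadjusted p under 0.05. Of the 20, 13 were below 0, 6 were more than 2-fold lower and 1 more than 2-fold higher. Their median of −0.60 was −0.06 without NBRC 0224 0.6% AcOH replicate 1 and −0.95 without replicate 2. The 15 other weak-acid genes tested, AZR1 among them, had a median of −0.20. Across 37 gene lists the medians ran from −0.79 to 0.45. Below −0.5 lay the lists for Msn2 and Msn4, maltose and galactose, hexose transporters, Haa1, trehalose and glycogen, acetate and gluconeogenesis, and glycerol. Over the genes above background on all arrays the glycerol list was at 0.17 and the maltose and galactose list, with 3 such genes, at −0.29. Above 0.3 lay those for Gcn4, the TCA cycle, ribosome biogenesis and histones.

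**Figure D4:**
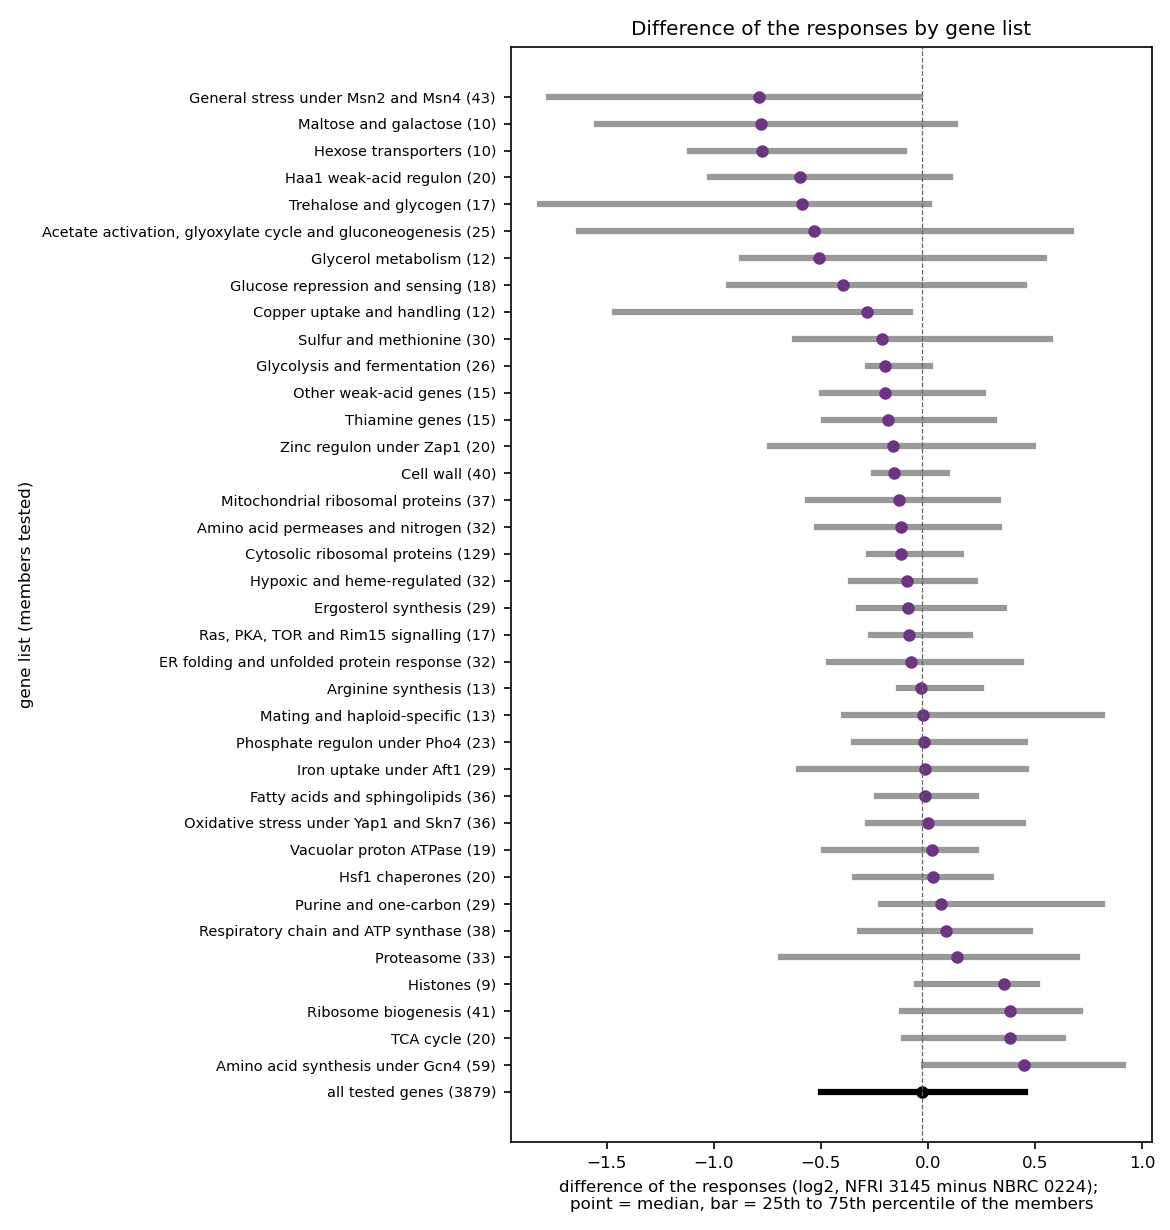
Difference of the responses (log2, NFRI 3145 minus NBRC 0224) in 37 gene lists and in all 3879 tested genes, as the median (point) and the 25th to 75th percentile of the members (bar), with the number of tested members in brackets. The medians run from −0.79 for general stress genes to 0.45 for amino acid synthesis genes, and the bars of most lists cross the median of all genes at −0.03.

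The same differences can be read as strain differences before and under acid. In 15 of the 33 called genes (45.5%) the strains were further apart at 0.6% than at 0% AcOH, against 42.0% of all tested genes, and in 18 they were closer. With signals below background set to background the counts were again 15 and 18, with FEX2 and YGL041C-B changing sides, and they were 12 and 12 over the 24 called genes above background on all arrays. The 15 of the fit were ARG1 and 14 of the genes called lower in NFRI 3145. For FRE7 the strain difference went from −0.60 to −4.15, for PCK1 from 0.01 to −3.64 and for TIR1 from −1.03 to −2.54. Among the 8 genes called higher in NFRI 3145, 7 came closer by the fit, and 5 of the 6 above background on all arrays did, such as HXT1 from −2.78 to −1.26 and TIR4 from −2.97 to −1.02. AZR1 and FEX2 had no NFRI 3145 signal above background, and with signals below background set to background the FEX2 strain difference was wider under acid, at −6.79 and then −7.25. RPS28A and YAR068W, at 3.75 and 4.41 without acid, remained 2.75 and 3.41 higher in NFRI 3145 under acid. The sign of the strain difference turned in 14 of the 33 (42.4%), against 786 of the 3879 tested (20.3%), among them FBP1 (1.49 to −3.26), YET1 (0.85 to −3.96) and HXK1 (1.15 to −2.04). The 33 were called on the change in the strain difference itself, so a larger share of turns than among all genes follows from that choice. The counts of this paragraph describe the called genes and are no separate result.

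**Figure D5:**
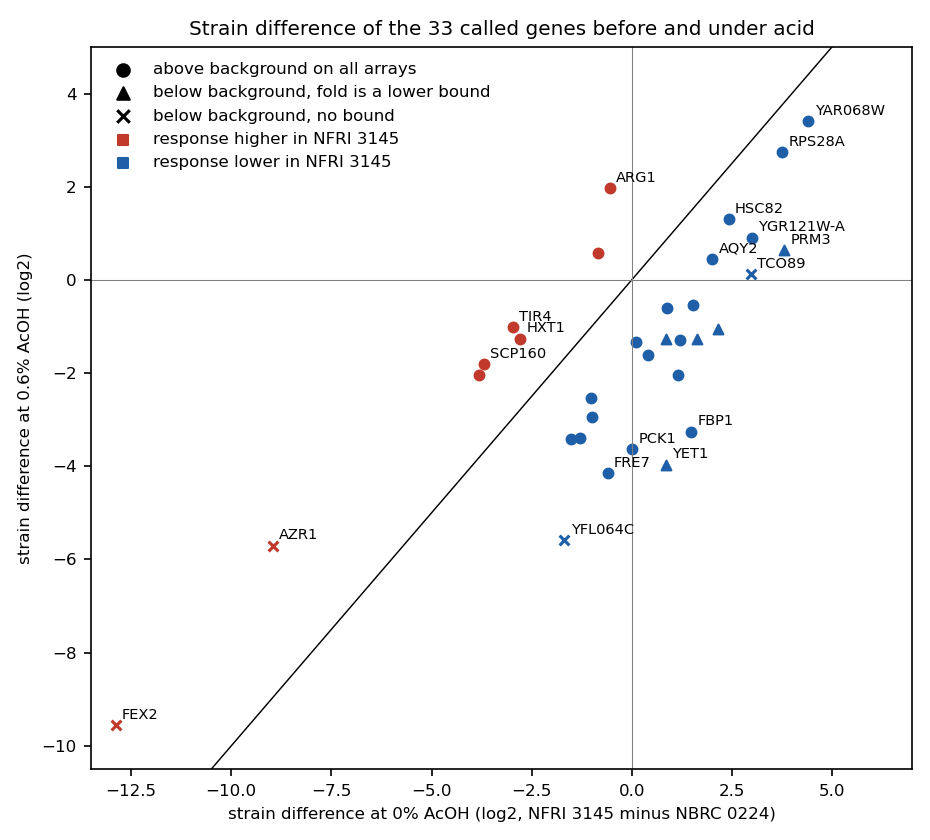
Strain difference (log2, NFRI 3145 minus NBRC 0224) of the 33 called genes at 0% AcOH (x axis) and at 0.6% AcOH (y axis), with the line of equal differences, and with symbols for genes with signals below background. Points under the line are the 25 genes called lower in NFRI 3145, and FBP1, YET1 and others changed sign, while RPS28A and YAR068W stayed far above 0.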

How the data were processed

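Per the labels' protocols, polyA RNA was prepared by hot phenol extraction and biotin labelled; per the submitters' processing notes the software was GCOS, with no version given. Deposited was 1 linear signal, an intensity, per probe set and array. The mean of each array trimmed by 2% at each end was 500.7 to 500.8 over all probe sets, so the arrays were deposited on a common scale. The probe design and genome build are not given in the sources used here, and probes were not compared with these strains' sequences.

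Background per array (31.5 to 43.9) was the 95th percentile of the S. pombe probe sets. For 47 genes with several probe sets the brightest was used; 93 tested genes rest on _s_at or _x_at probe sets, which can hybridise with related transcripts. Symbols follow the R64 gene table, which updated 12 of them. A limma (3.58.1, R 4.3.3) linear model of the log2 signals held 1 mean per group, 4 in all, and moderated variances with an intensity trend. Its residual degrees of freedom were 4, and 11.3 once moderated, and p-values were adjusted by Benjamini-Hochberg over all tested genes. The model was run on 20 simulated sets of 3879 genes with normal noise, each with 200 genes changed 2-fold or 4-fold. It called 13% of the 2-fold and 51.6% of the 4-fold changes. A gene that did not pass may therefore still differ. Of the calls in the simulated sets, 4.97% were false. Because the simulated noise was normal, as the model assumes, this share does not measure the error rate of the genes called here. The real groups differed in spread, with replicates more than 2-fold apart in 5.47% to 12.8% of genes. A bound raises signals below background to it and is given only where lower true signals would make the difference larger. Plots used matplotlib 3.10.9 in Python 3.11.15.

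The comparison, gene lists and rule for named genes were chosen with earlier results of these data known. The rule takes the 15 largest called differences in each direction, genes called whichever array is left out, up to 3 called members of each list, and 11 genes whatever their values, HAA1, WAR1, PDR12, FPS1, PMA1, HSP30, YET1, FBP1, PCK1, FRE7 and ARG1. AQY2, PRY1, SWF1 and YAR068W fall outside it and were named after their values were seen, to account for all called genes. Alternatives were other scaling, filters, probe set choices, variance models, a replicate block and leaving out each array. The main fit did not treat the replicate numbers as a pairing of the samples.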

Additional observations from a re-analysis of the deposited data

Results flagged for a closer look

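The response to acetic acid was called different between the strains, by the test of the difference itself, in the 33 genes of the report. For YFL064C, FEX2 and AZR1 all NFRI 3145 signals were below background. With signals below background set to background the differences of YFL064C and FEX2 were −0.13 and −0.46 and did not pass. That of AZR1 was then 1.95 and passed. Lower in NFRI 3145, as log2 differences of the responses, were YET1 (−4.81), FBP1 (−4.74), YFL064C (−3.91), PCK1 (−3.65), FRE7 (−3.55), DDR2 (−3.20), HXK1 (−3.19), PRM3 (−3.18), RCN2 (−2.88), TCO89 (−2.86), BDH2 (−2.49), YGL041C-B (−2.12), YEL076C-A (−2.11), YGR121W-A (−2.09), MPC3 (−2.07), SWF1 (−2.01), MET13 (−1.94), RSB1 (−1.90), AQY2 (−1.56), TIR1 (−1.51), PRY1 (−1.49), GLK1 (−1.45), HSC82 (−1.12), RPS28A (−1.01) and YAR068W (−1.0). Higher were FEX2 (3.33), AZR1 (3.25), ARG1 (2.51), TIR4 (1.95), SCP160 (1.87), EUG1 (1.79), HXT1 (1.52) and ENB1 (1.42). Of the 33, 24 were above background on all arrays, 4 had signals that give no bound, and 8 had an array near the top of the scale.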

How the results depend on the processing

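The main counts of 8 genes higher and 25 lower in NFRI 3145 ranged from 0 to 168 higher and from 4 to 168 lower when 1 array was left out, and the cause was not tested. Median centring gave 19 higher and 21 lower, which shifts the split towards higher, array weights 13 and 32, and genes above background on all 8 arrays 16 and 32 of 2331. Setting signals below background to background gave 43 and 105, and a fit with no intensity trend 0 and 5 (251 and 357 at an unadjusted p under 0.05 by limma), of which YET1, PCK1 and FRE7 were among the 33. The other planned settings kept both counts within 1.5 times of the main ones: quantile normalization 11 and 28, no filter 6 and 17, without shared probe sets 9 and 23, and the mean of probe sets 8 and 25. The genes were not all the same: of the 33 called genes these settings kept 27, 23, 31 and 33, in that order. A replicate block gave 13 higher and 37 lower and kept all 33. The main fit did not treat the replicate numbers as a pairing. Over 6 pairs of groups the replicates' deviations correlated between −0.054 and 0.054, and 3 of the 6 were below 0. These values show no shared shift between groups, but they cannot show whether the samples were paired.

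All 33 differences kept their sign except FEX2, which was −0.46 with signals below background set to background. Leaving out 1 array kept 134 of 264 calls of these genes and lost 130, and the other settings kept 264 and lost 54 without a change of sign. PDR12, not called, ran from −0.16 to 0.39 and HSP30, not called, from −3.90 to −0.71 when 1 array was left out. Signals below background and near the top of the scale limit what could be measured. The planned counts of promoter motifs were not run, since no promoter sequences were used here.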

Other observations

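Of the lists not described above, ribosome biogenesis had a median difference of 0.38 over 41 tested genes, with 6 more than 2-fold higher and 2 more than 2-fold lower in NFRI 3145 and none called by limma (5 higher and 1 lower at an unadjusted p under 0.05), but 0.05 over its 25 genes above background on all arrays, and it ran from 0.11 without NFRI 3145 0.6% AcOH replicate 2 to 0.53 without replicate 1. The TCA cycle list had 0.38 over 20 tested genes, with 6 below 0, none more than 2-fold lower and none called by limma (5 higher and 1 lower at an unadjusted p under 0.05), and it lay between 0.32 and 0.46 whichever array was left out. LPD1, a subunit shared by pyruvate and 2-oxoglutarate dehydrogenases, was at 1.54 ± 0.40 (adjusted p = 0.096). The proteasome list had 0.14 over 33 genes, but 0.70 over the 15 above background on all arrays, with none called by limma (4 higher and 3 lower unadjusted), and it ran from −0.11 without NFRI 3145 0% AcOH replicate 1 to 0.35 without NBRC 0224 0% AcOH replicate 2. Histone genes had 0.36 over 9 genes and the respiratory chain and ATP synthase 0.09 over 38, with none called by limma in either (1 and 4 higher and 0 lower unadjusted). The histone median ran from 0.15 without NFRI 3145 0.6% AcOH replicate 2 to 0.54 without NBRC 0224 0.6% AcOH replicate 1. That of the respiratory chain ran from −0.001 without NFRI 3145 0.6% AcOH replicate 2 to 0.17 without replicate 1.

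GDH2, the NAD-dependent glutamate dehydrogenase, was close to the threshold at 3.27 ± 0.69 (adjusted p = 0.052), with all NFRI 3145 signals between 3.27 and 7.54, below background, and a fall in NBRC 0224 from 1499 and 694 to 198 and 152.

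In the gene order of the R64 assembly, 10 of the 33 called genes (30.3%) lay within 20 protein-coding genes of a chromosome end, against 375 of the 3879 tested (9.67%). They were YFL064C, PCK1, FRE7, HXK1, BDH2, YEL076C-A, AQY2, YAR068W, ENB1 and FEX2. YFL064C and FEX2 of these had no NFRI 3145 signal above background. One pair of called genes were direct neighbours, SCP160 and PRY1, and their differences had opposite signs, 1.87 and −1.49.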
